A study of Mus musculus with 16 samples.

Results

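The ileum and the duodenum are the far and the near end of the small intestine, and they were set against each other here in mice whose gut epithelium had lost Neurog3. The comparison used 8 of the 16 libraries of the series, namely 1 ileum and 1 duodenum library from each of 4 mutant mice (M136, M167, M168, M177). Each mouse served as its own pair. Mutant animals carried both the floxed Neurog3 alleles (Neurog3f/f) and the Villin-CreERT2 transgene, a tamoxifen-inducible recombinase under a promoter of the gut epithelium, so cells outside the epithelium keep the gene. The other 8 libraries, from the ileum and the duodenum of 4 control mice (C133, C134, C151, C154), carried the Neurog3f/f alleles without the transgene and served to test whether a regional difference depended on the genotype. All animals were adult C57BL/6N males on a high fat diet and were sampled 5 weeks after tamoxifen. Total RNA was sequenced as stranded libraries after removal of ribosomal RNA, and how much of the gut wall each piece of tissue held is not given in the sources used here. Values of the 4 mutant mice are listed in the order M136, M167, M168 and M177, those of control mice in the order C133, C134, C151 and C154. Levels are in CPM, counts scaled to the size of each library, which do not account for gene length, so levels are compared between tissues and not between genes.

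The small intestine changes its tasks along its length. The duodenum takes up iron, calcium, folate, sugars and fat, while the ileum recovers bile acids and vitamin B12 and holds more antimicrobial Paneth cells. Zinc finger factors such as GATA4 and homeobox factors such as PDX1 are known to hold the proximal programme of absorptive cells, and GATA4 keeps ileal genes silent there. Enteroendocrine cells secrete the hormones of the epithelium and arise from precursors in which Neurog3 is switched on. The comparison asks which regional differences are found where these cells are missing.

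Neurog3 had 1 count over the 4 ileum libraries and 1 count over the 4 duodenum libraries of mutant mice. In control mice it stood at 0.890 ± 0.225 CPM in ileum and 2.60 ± 0.160 CPM in duodenum (mean ± SD, n = 4 each). Of the hormone genes that mark each region, Gip, the incretin gene of duodenal K cells, had 0 counts in mutant ileum and 16 counts in mutant duodenum. Gcg, the GLP-1 precursor gene of ileal L cells, had 22 counts in mutant ileum and 146 in mutant duodenum, and the duodenum of mouse M177 held most of these, at 0, 0.117, 0.167 and 3.64 CPM in duodenum over the 4 mice. Pancreatic islet genes summed to 4.38, 41.1, 21.2 and 53.6 CPM in the same libraries, also highest in M177. The part of pancreatic tissue in the Gcg counts was not tested. Both Gip and Gcg fell below the low count filter in mutant mice, so neither gave a test between the tissues.

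The 16 libraries held 40869732 to 67180948 counts. Transcripts of the exocrine pancreas, which lies against the duodenum, varied widely: 25 acinar genes took 0.0282, 0.427, 0.303 and 0.232% of the counts in mutant ileum, against 0.867, 17.8, 4.11 and 17.5% in mutant duodenum. In control mice they took 0.0121 to 0.176% in ileum, against 0.00709 to 2.94% in duodenum, with the lowest shares of either tissue in mice C134 and C154 (0.00709 and 0.0073% in duodenum). The duodenum of mice M167 and M177 therefore stood apart, and so did C134 and C154. Results below were also fitted without M167 and M177 and, for control mice and the genotypes, without C134 and C154. Markers of the gut wall also moved with tissue. The summed level of 19 smooth muscle genes was 5669 to 8674 CPM in mutant ileum and 2745 to 4251 CPM in mutant duodenum, and their part in the other differences was not tested. Scaling factors were 1.14 to 1.29 in mutant ileum and 0.79 to 0.85 in mutant duodenum, and another scaling shifted the median of all genes by 0.027 on the log2 scale. In bulk tissue, fewer cells of a type and less RNA per cell cannot be told apart.

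In mutant mice, 6951 of 17852 tested genes (38.9%) differed between ileum and duodenum. The ileum was higher for 3058 genes (17.1%) and lower for 3893 (21.8%), at an adjusted p under 0.05 in edgeR's quasi-likelihood test with the mouse as a block. Differences of at least 4-fold were found for 307 genes higher in ileum (1.72%) and 621 lower in ileum (3.48%). All 4 ileum libraries lay above all 4 duodenum libraries for 2484 genes (13.9%) and below them for 3259 (18.3%). Without mice M167 and M177, 1995 genes were higher and 2947 lower, and 4476 of the 6951 genes were called in the same direction. Control mice gave 11255 calls among 18217 tested genes (61.8%), of which 5423 were higher in ileum (29.8%) and 5832 lower (32.0%). Differences of at least 4-fold there numbered 502 (2.76%) and 520 (2.85%). Counts of list members called below are to be read beside the shares of all genes called, 38.9% in mutant and 61.8% in control mice.

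The regional differences of mutant mice were mostly those of control mice. Across the 17473 genes tested in both genotypes, the log2 fold changes of mutant and control mice had a Pearson correlation of 0.783 and a Spearman correlation of 0.666, a description over genes that are not independent of each other. The 2 fits share no library. Between single mutant and single control mice this correlation was 0.559 to 0.780 over the 16 pairs. Of 6841 genes called in mutant mice and tested in both, 5075 (74.2%) were called in the same direction in control mice and 207 in the opposite one. The other 1559 were not called in control mice. Of all genes tested in control mice, 29.8% were called higher and 32.0% lower in ileum. The 5075 genes were 46.5% of those called in control mice and tested in both. Of 849 genes called in mutant mice with a difference of at least 4-fold and tested in both, 739 (87.0%) were called in the same direction in control mice and 3 in the opposite one.

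**Figure D1:**
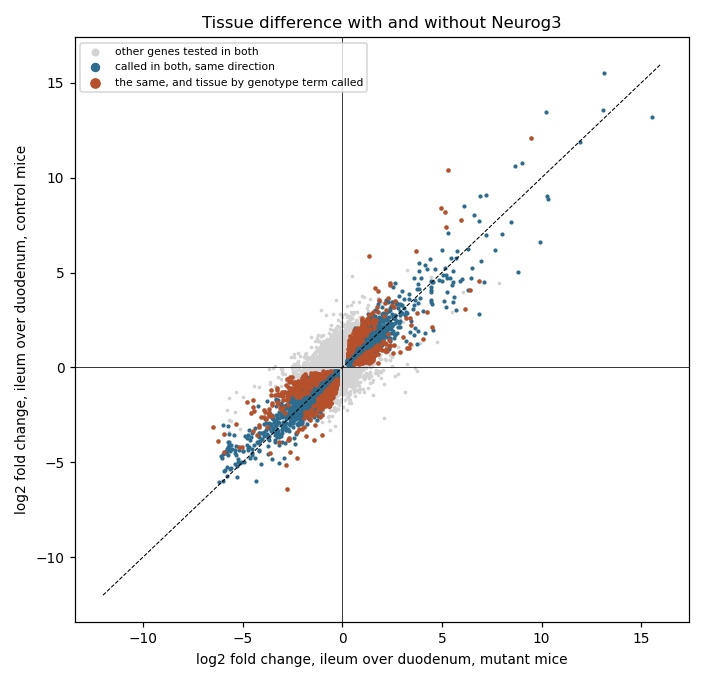
Log2 fold change of ileum over duodenum in mutant mice (x axis) and control mice (y axis), 1 point per gene tested in both (17473 genes). Coloured points are the 5075 genes called in the same direction in both genotypes, and the 970 of them for which the tissue by genotype term also passed are in orange. The dashed line marks equal differences.

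Transcription factors that are known to pattern the gut separated the tissues of mutant mice. Of 23 regional factors tested, 10 were higher and 8 lower in ileum, with a median log2 fold change of 0.19, against 10 higher and 8 lower of 24 in control mice. Gata4 stood at 9.52, 12.3, 24.3 and 9.71 CPM in mutant ileum, against 159, 129, 206 and 189 CPM in mutant duodenum (log2 fold change -3.70, SE 0.23, adjusted p = 4.43e-05). Pdx1, the homeobox factor of pancreas and proximal duodenum, stood at 0.414, 1.13, 2.60 and 0.754 CPM in ileum and 33.2, 46.0, 75.7 and 62.5 CPM in duodenum (log2 fold change -5.62, SE 0.30, adjusted p = 3.32e-05). Neither gene's tissues overlapped. The log2 fold changes in control mice were -3.19 for Gata4 and -5.35 for Pdx1, and the test of the difference from mutant mice, the tissue by genotype term, did not pass (-0.51, SE 0.36, adjusted p = 0.348 for Gata4 and -0.23, SE 0.41, adjusted p = 0.717 for Pdx1). Osr2, an odd-skipped zinc finger factor known from palate and limb development, showed the opposite pattern, with 69.7, 53.0, 64.5 and 55.2 CPM in ileum and 0.0793, 0.117, 0.0418 and 0 CPM in duodenum (log2 fold change 9.90, SE 0.29, adjusted p = 2.64e-07).

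Onecut2, a cut-homeobox factor chosen after its values were seen, stood at 4.65, 13.5, 14.9 and 8.06 CPM in ileum and 237, 263, 293 and 257 CPM in duodenum (log2 fold change -4.80, SE 0.29, adjusted p = 8.23e-05). Its groups did not overlap. Differences smaller than those of Gata4, Pdx1, Osr2 and Onecut2 were found for the factors that act along the whole gut. Cdx1 and Cdx2, the caudal homeobox factors of intestinal identity, had log2 fold changes of 0.78 and 0.58 and were higher in ileum (adjusted p = 0.000156 and 0.00878). Gata6 and Hnf4g were lower in ileum, with log2 fold changes of -0.91 and -1.24 (adjusted p = 0.00011 and 9.25e-05). Hnf4a, the nuclear receptor of enterocyte differentiation, was higher by 0.38 (adjusted p = 0.0445). Without M167 and M177 neither Cdx2 (adjusted p = 0.0939) nor Hnf4a (0.248) was called, and Hnf4a was also lost without M136, M167 or M177 alone (adjusted p = 0.0875 to 0.192).

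**Figure D2:**
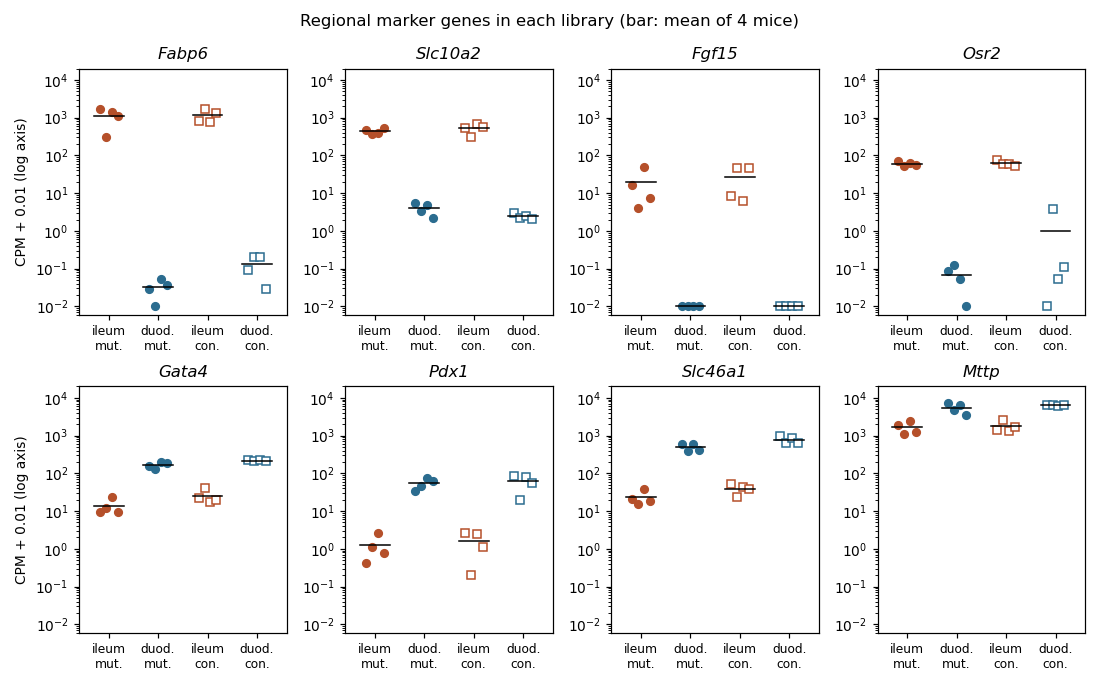
CPM plus 0.01 on a log axis for 8 genes, 1 point per library, with filled circles for mutant and open squares for control mice, ileum left of duodenum, and a bar at the mean of 4 mice. Fabp6, Slc10a2, Fgf15 and Osr2 lie higher in ileum and Gata4, Pdx1, Slc46a1 and Mttp lower, in mutant and in control mice, with no overlap between the tissues of either genotype.

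Hox genes, which record position along the body axis, separated the tissues by their place in the cluster. Of 39 Hox genes looked up, 6 had no count in any library, 13 had counts too low to be tested and 20 were tested. In mutant ileum 13 of the 20 were higher and 2 lower, with a median log2 fold change of 1.45 beside -0.00718 over all tested genes. Among the 10 tested genes numbered 6 to 10, 9 were higher and none was lower, with a median of 4.87, whereas of the 10 numbered 1 to 5, 4 were higher and 2 lower, with a median of 0.12. This split by number was made after the values were seen and was not tested. No member passed the test of the tissue by genotype term, and control mice had 16 higher and 2 lower of 21.

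Hoxb9, the member with the smallest p, stood at 18.3, 17.4, 15.1 and 25.8 CPM in ileum and 0.0198, 0.0702, 0.0209 and 0.0274 CPM in duodenum of mutant mice (log2 fold change 9.02, SE 0.27, adjusted p = 2.27e-07). Its neighbour Hoxb8 stood at 5.31, 5.88, 5.44 and 7.29 CPM in ileum and 0.0595, 0.0702, 0.0418 and 0 CPM in duodenum (log2 fold change 6.96, SE 0.38, adjusted p = 2.11e-06). Hoxb7 stood at 4.52, 3.56, 3.50 and 5.02 CPM in ileum and 0.119, 0.117, 0.251 and 0.246 CPM in duodenum (log2 fold change 4.50, SE 0.29, adjusted p = 5.49e-06). The tissues did not overlap for any of these 3 genes. Hoxc8 stood at 9.62, 6.57, 11.1 and 8.81 CPM in ileum and had 0 counts in the 4 duodenum libraries, at least 526-fold higher against a floor of 3 counts over the duodenum libraries (adjusted p = 7.78e-06). Hoxa2 and Hoxa4, at the other end of their cluster and chosen after their values were seen, were the 2 members lower in ileum. Hoxa2 stood at 0.530, 0.742, 0.315 and 0.484 CPM in ileum and 1.94, 1.82, 1.04 and 1.15 CPM in duodenum (log2 fold change -1.53, SE 0.26, adjusted p = 0.00144). Hoxa4 stood at 0.364, 0.560, 0.926 and 0.413 CPM in ileum and 1.11, 1.52, 1.17 and 0.876 CPM in duodenum (log2 fold change -1.10, SE 0.30, adjusted p = 0.0182). Their levels were low and the ileum values stayed below those of the duodenum for Hoxa2, while those of Hoxa4 overlapped and its call was lost without M136 or M167 (adjusted p = 0.0668 and 0.0848). Hox genes are also expressed in mesenchyme and muscle, and the cell type behind these levels was not tested.

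**Figure D3:**
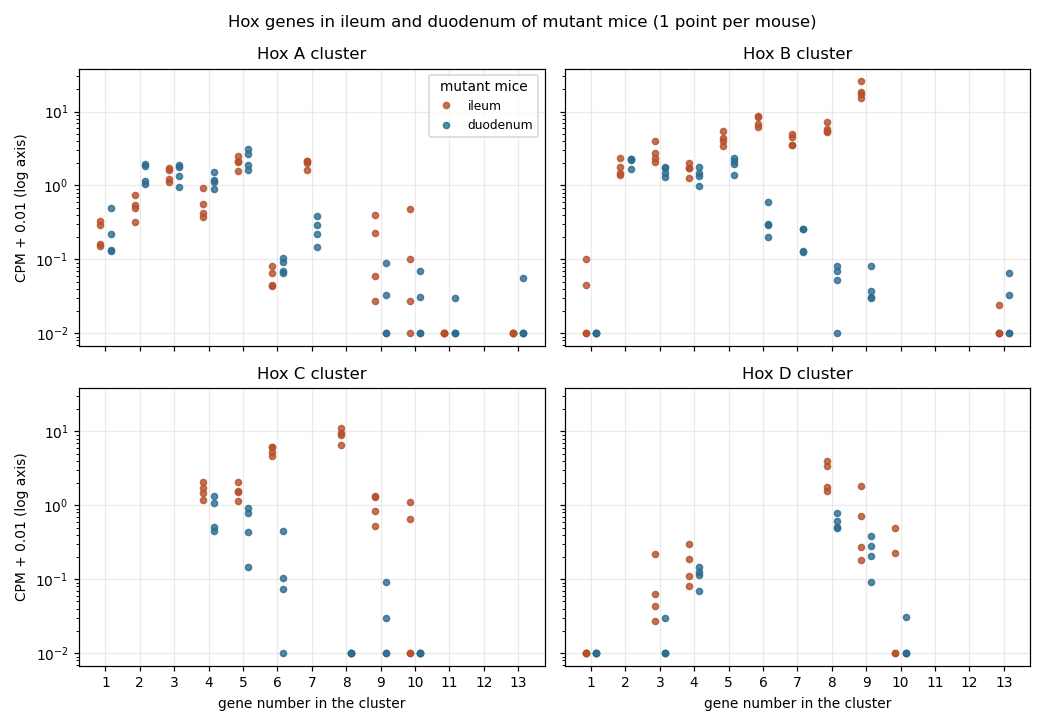
CPM plus 0.01 on a log axis (zero counts lie at 0.01) of the Hox genes of clusters A to D by gene number, 1 point per mutant mouse, ileum left of duodenum. The tested genes numbered 6 to 9 of clusters B and C lie higher in ileum with no overlap, as for Hoxb9 at 15.1 to 25.8 CPM in ileum and 0.0198 to 0.0702 CPM in duodenum.

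Genes that handle bile acids marked the ileum of mutant mice. Bile acids are taken up from the lumen by SLC10A2, carried through the cell by FABP6, sensed by the receptor FXR (Nr1h4) and passed to the blood by SLC51A and SLC51B, and FXR induces Fgf15, a signal to the liver. Of 13 genes tested in this list 7 were higher and 4 lower in ileum, with a median log2 fold change of 1.35, and no member passed the tissue by genotype term. Fabp6 stood at 1721, 316, 1408 and 1102 CPM in ileum and had 4 counts over the 4 duodenum libraries (log2 fold change 15.52, SE 0.25, adjusted p = 3.56e-09), which was the largest difference of any tested gene. Slc10a2 stood at 477, 380.2, 391 and 548 CPM in ileum and 5.39, 3.27, 4.85 and 2.16 CPM in duodenum (log2 fold change 6.87, SE 0.33, adjusted p = 2.83e-05). Fgf15 stood at 16.1, 4.09, 50.1 and 7.39 CPM in ileum and had 0 counts in duodenum, at least 1099-fold higher against the floor (adjusted p = 3.32e-06). The tissues did not overlap for any of the 3 genes, although the ileum of M167 was the lowest for Fabp6 and for Fgf15. The exporter genes Slc51a and Slc51b were higher too, with 501, 284, 532 and 436 CPM in ileum and 135, 89.4, 135.8 and 119 CPM in duodenum for Slc51a (log2 fold change 1.85, SE 0.10, adjusted p = 2.43e-06) and a log2 fold change of 1.62 for Slc51b (adjusted p = 6.82e-06).

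Nr0b2, the repressor SHP and an FXR target in liver, stood at 0.315, 0.266, 0.524 and 0.179 CPM in ileum and 6.32, 9.31, 6.04 and 7.66 CPM in duodenum (log2 fold change -4.52, SE 0.32, adjusted p = 1.21e-05). Abcc2, an apical exporter of conjugates, stood at 266, 108, 269.8 and 114 CPM in ileum and 1131, 486, 816 and 732 CPM in duodenum (log2 fold change -2.13, SE 0.17, adjusted p = 2.80e-05). Nr1h4 itself was higher in ileum by 1.35 on the log2 scale (adjusted p = 9.77e-05). These 3 genes were chosen after their values were seen.

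The promoters of Fabp6 and Slc10a2 are shown because they belong to the intracellular carrier and the importer of bile acids. Both are RefSeq windows on assembly GRCm38.p6, from 250 bases before to 50 after the start, written in the direction of transcription. In Fabp6 the capitals mark the FXR inverted repeat, facing hexamers 1 base apart that this receptor is known to bind, searched on both strands with letters loosened after this promoter was read. In Slc10a2 the capitals mark matches to TTTATNG or its reverse complement, the core bound by CDX factors. Fabp6 lies at chr11:43601513-43601812 on the minus strand and Slc10a2 at chr8:5105238-5105537 on the minus strand.
Fabp6: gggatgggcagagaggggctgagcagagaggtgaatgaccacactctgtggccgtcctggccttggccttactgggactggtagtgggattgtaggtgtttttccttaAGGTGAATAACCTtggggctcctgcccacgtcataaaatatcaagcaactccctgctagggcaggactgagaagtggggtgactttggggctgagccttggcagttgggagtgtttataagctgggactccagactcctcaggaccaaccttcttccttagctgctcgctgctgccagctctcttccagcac
Slc10a2: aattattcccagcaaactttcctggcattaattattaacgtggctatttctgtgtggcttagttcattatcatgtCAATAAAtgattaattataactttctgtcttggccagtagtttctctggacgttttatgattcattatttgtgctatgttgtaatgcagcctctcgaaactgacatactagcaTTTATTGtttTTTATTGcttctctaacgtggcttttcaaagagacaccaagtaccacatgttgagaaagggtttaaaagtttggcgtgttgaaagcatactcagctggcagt
The FXR repeat was found in 7 of 32851 promoter windows (0.0213%) and in 2 of the 15414 windows of tested genes, Fabp6 and Dnah8. The match in Fabp6 was fixed in advance, because the letters were loosened on its promoter, so its rarity tells nothing about Fabp6. Dnah8 had a log2 fold change of 0.47. The CDX core was found in 15.1% of the 238 windows of genes at least 4-fold higher in ileum and in 14.8% of the 506 windows of genes at least 4-fold lower. It was found in 6.72% of the 8991 windows of genes not called and in 10.9% of all 32851 windows. A match is a description of letters and not a bound site.

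The vitamin B12 list split, with the receptor gene Cubn higher in ileum and 4 of 10 members lower. Of all tested genes, 17.1% were higher and 21.8% lower. Cubn, which encodes the ileal receptor for B12 bound to intrinsic factor, stood at 993, 634, 977 and 591 CPM in ileum and 458, 110.3, 275 and 60.1 CPM in duodenum (log2 fold change 2.19, SE 0.39, adjusted p = 0.00911), with adjusted p = 0.0528 to 0.0682 without mouse M167, without the block or with no low count filter. Tcn2, the B12 carrier of blood, was lower in ileum, with 145, 105, 178 and 143 CPM in ileum against 443, 373, 383 and 323 CPM in duodenum (log2 fold change -1.43, SE 0.14, adjusted p = 6.40e-05), as was Cd320, the cell surface receptor for B12 bound to that carrier, chosen after its values were seen (log2 fold change -0.82, SE 0.17, adjusted p = 0.00438, with adjusted p = 0.154 without M167 and M177). Of 21 mineral genes tested, 5 were higher and 13 lower in ileum, with a median log2 fold change of -0.78. Trpm6, a magnesium channel, stood at 84.2, 75.3, 65.7 and 89.3 CPM in ileum and 1.43, 1.92, 1.38 and 1.09 CPM in duodenum (log2 fold change 5.75, SE 0.18, adjusted p = 2.29e-07). Slc34a2, the apical phosphate transporter, was chosen after its values were seen and stood at 703, 346, 372 and 338 CPM in ileum and 5.89, 3.88, 6.58 and 0.383 CPM in duodenum (log2 fold change 6.92, SE 0.75, adjusted p = 0.00418).

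On the duodenal side of the mineral list stood Fth1, the ferritin heavy chain, with 719, 569.6, 862 and 719 CPM in ileum and 7002, 5039, 5683 and 5505 CPM in duodenum (log2 fold change -3.02, SE 0.18, adjusted p = 3.07e-06). Slc40a1, the iron exporter ferroportin, stood at 15.03, 15.7, 20.5 and 17.5 CPM in ileum and 122, 181, 294 and 361 CPM in duodenum (log2 fold change -3.69, SE 0.22, adjusted p = 2.39e-05). Slc39a14, a metal importer, was lower in ileum by a log2 fold change of -1.79 (adjusted p = 2.88e-06). No ileum library reached any duodenum library for these 3 genes. S100g, the vitamin D dependent calcium carrier of the cytosol, stood at 5.66, 2.44, 9.33 and 7.50 CPM in ileum and 42.7, 95.3, 181 and 221 CPM in duodenum (log2 fold change -4.34, SE 0.48, adjusted p = 0.0029). Cybrd1, the ferric reductase of the duodenal brush border, did not pass the test. It stood at 13.1, 12.4, 15.5 and 11.4 CPM in ileum and 9.08, 11.7, 99.5 and 119 CPM in duodenum (log2 fold change -1.39, SE 0.98, adjusted p = 0.348), so that in mice M136 and M167 the duodenum was not above the ileum. S100g and Cybrd1 were chosen after their values were seen.

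Folate and thiamine carriers were lower in ileum, and 5 of 7 genes in the vitamin list were lower and 1 higher in ileum, with a median log2 fold change of -1.50. Slc46a1, the proton-coupled folate transporter, stood at 21.0, 15.5, 37.5 and 18.3 CPM in ileum and 602, 399, 598 and 420.4 CPM in duodenum (log2 fold change -4.51, SE 0.17, adjusted p = 3.97e-07). Slc19a3, a thiamine transporter, stood at 1.34, 1.72, 3.02 and 2.17 CPM in ileum and 48.5, 40.2, 46.9 and 63.2 CPM in duodenum (log2 fold change -4.62, SE 0.21, adjusted p = 2.38e-06). Both pairs were separated without overlap, and the tissue by genotype term did not pass for either (adjusted p = 0.47 and 0.738). Slc19a1 and Slc19a2, the reduced folate carrier and a second thiamine carrier, were lower in ileum by log2 fold changes of -1.77 and -1.50 (adjusted p = 1.67e-06 and 7.65e-06).

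Genes of sugar digestion and uptake were mostly lower in ileum. Of 21 genes tested 19 were lower and 1 higher in ileum, with a median log2 fold change of -2.86, and control mice had 20 lower and 1 higher of 22 with a median of -2.05. Slc5a1, the sodium-glucose transporter SGLT1, stood at 859, 691, 1378 and 805 CPM in ileum and 7313, 4971, 7189 and 4857 CPM in duodenum (log2 fold change -2.73, SE 0.18, adjusted p = 7.45e-06). Galm and Tkfc, a galactose mutarotase and a triokinase of the fructose pathway, were lower in ileum by log2 fold changes of -2.02 and -2.07 (adjusted p = 2.39e-06 and 1.58e-05). In each of these 3 genes all duodenum libraries lay above all ileum libraries. Hk2, a hexokinase chosen after its values were seen, was the 1 member higher in ileum (log2 fold change 1.32, SE 0.14, adjusted p = 0.000112). Treh, the trehalose-splitting enzyme of the brush border and also chosen after its values were seen, stood at 43.9, 23.1, 72.2 and 43.0 CPM in ileum and 707, 398, 640.1 and 324 CPM in duodenum (log2 fold change -3.54, SE 0.24, adjusted p = 4.78e-05).

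Genes of fat absorption were mostly lower in ileum as well. Of 22 genes of lipid uptake and chylomicron assembly 18 were lower and 2 higher, with a median log2 fold change of -1.14. Scarb1, a lipoprotein and sterol receptor, stood at 9.04, 11.3, 13.9 and 8.60 CPM in ileum and 62.2, 58.1, 101 and 95.3 CPM in duodenum (log2 fold change -2.86, SE 0.17, adjusted p = 8.65e-06). Dgat2, Tm6sf2 and Mogat2, which act in triglyceride synthesis and lipoprotein loading, were lower in ileum by log2 fold changes of -1.70, -1.37 and -1.17 (adjusted p = 2.99e-05, 7.30e-05 and 8.21e-05). The tissue by genotype term, the difference of the log2 fold change between mutant and control mice, passed for 10 of 23 members, all 10 above 0. This count became 6 without mouse C151 and without M167 and M177, and 2 without the mouse as a block. Over all 19289 genes tested for it, the term passed above 0 for 10.8% and below 0 for 10.0%. Counts of the term in this and the other lists are to be read beside these shares. Fabp1 encodes the liver-type fatty acid binding protein. Fabp1 stood at 245, 135, 381 and 153 CPM in mutant ileum and 2337, 1300.3, 2056 and 569 CPM in mutant duodenum (log2 fold change -2.71, SE 0.26, adjusted p = 0.000142), while control mice had 195, 243, 151.4 and 186 CPM in ileum and 2566, 3681, 2636 and 2321 CPM in duodenum (log2 fold change -3.84, term 1.12, SE 0.28, adjusted p = 0.0198, with adjusted p = 0.0556 without C134 and 0.0586 without C151). The term of Fabp1 was also lost without C134 and C154 (adjusted p = 0.102), without the block (0.189) and with no low count filter (0.0655). Its relative Fabp2, the intestinal type, stood at 1689, 472, 1947 and 1237 CPM in ileum and 2102, 820.2, 2471 and 598 CPM in duodenum of mutant mice and did not pass (log2 fold change -0.11, SE 0.29, adjusted p = 0.789).

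PPARA targets and fatty acid oxidation had 12 lower and 2 higher of 21, with a median log2 fold change of -0.72. Control mice had 20 lower and none higher. Among all tested genes 21.8% were lower in mutant and 32.0% in control mice. The term passed above 0 for 9 members of the PPARA list, which became 5 without C151, without C134 and C154, and without the block. Ehhadh, a peroxisomal oxidation enzyme, stood at 87.6, 53.1, 102 and 55.5 CPM in ileum and 335, 268, 380.1 and 228 CPM in duodenum (log2 fold change -2.05, SE 0.11, adjusted p = 1.82e-06). Genes of cholesterol synthesis ran the other way, with 15 of 23 higher and 3 lower in ileum and a median of 0.51. Fdft1, squalene synthase, stood at 99.7, 80.9, 105 and 100.2 CPM in ileum and 23.9, 27.3, 37.0 and 42.3 CPM in duodenum (log2 fold change 1.595, SE 0.13, adjusted p = 2.20e-05), and Mvd, Lss and Hsd17b7 of the same pathway were higher by log2 fold changes of 1.44, 1.03 and 1.02 (adjusted p = 2.27e-05, 7.69e-05 and 0.000112). All 4 genes also passed the tissue by genotype term above 0, from 0.55 to 1.01, though the terms of Fdft1 and Lss were lost without C134 and C154 and that of Fdft1 without C151 alone. Without the block the terms of Fdft1, Lss and Hsd17b7 did not pass (adjusted p = 0.132, 0.175 and 0.149), and in the list the term passed above 0 for 2 genes, against 7 with the block. Sterol exporters and receptors had 3 higher and 7 lower of 11. The sterol exporter gene Abcg5 was lower in ileum (log2 fold change -1.73, SE 0.14, adjusted p = 2.76e-05).

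Genes of peptide digestion and amino acid uptake split between the tissues, with 8 of 25 higher and 11 lower in ileum and a median log2 fold change of -0.25. Slc6a14, a broad amino acid carrier known from the distal gut, stood at 16.2, 183, 9.23 and 358 CPM in ileum and had 2 counts over the duodenum libraries, a ratio of ileum to duodenum of 12524 with 95% counting limits of 3467 and 103421 (adjusted p = 2.27e-07). Its ileal level was far higher in mice M167 and M177 than in the other two, and all 4 ileum libraries were above those of the duodenum. Slc1a1, a glutamate carrier, was higher in ileum (log2 fold change 2.12, SE 0.13, adjusted p = 5.04e-06), while Slc7a8 and Mme, an amino acid exchanger and the peptidase neprilysin, were lower (log2 fold change -2.38, SE 0.15, adjusted p = 5.22e-06 for Slc7a8 and log2 fold change -3.80, SE 0.25, adjusted p = 1.03e-05 for Mme). Tmprss15, enteropeptidase, the protease that starts the activation of trypsinogen, was chosen after its values were seen and stood at 4.30, 4.91, 24.8 and 3.16 CPM in ileum and 347, 221, 617 and 334 CPM in duodenum (log2 fold change -5.77, SE 0.47, adjusted p = 0.000867), with adjusted p = 0.11 without M167 and M177. The tissue by genotype term passed for 10 of the 25 genes, all 10 below 0. Leaving out M136, M167, M168, C151 or C154 left 4 to 6 such genes, and 3 were left without both C134 and C154 and 2 without the block.

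Detoxification genes were mostly lower in ileum. Of 26 cytochromes P450 of families 1 to 4, 22 were lower and 2 higher in ileum, with a median log2 fold change of -2.70. The term passed for 7 of 28, all 7 below 0, beside 20.9% of all genes in either direction and 10.0% below 0. That 7 became 4 without M136, M167 or C154 and 1 without the block. Cyp3a11, a drug-oxidising enzyme, stood at 13.7, 24.0, 32.5 and 10.6 CPM in ileum and 658, 648, 1106 and 397 CPM in duodenum (log2 fold change -5.16, SE 0.17, adjusted p = 2.29e-07), against -4.21 on the log2 scale in control mice (term -0.96, SE 0.16, adjusted p = 0.00318, with adjusted p = 0.213 without the block). Cyp3a13, Cyp2c68 and Cyp2d26 of the same classes were lower in ileum by log2 fold changes of -2.63, -2.75 and -2.88 (adjusted p = 1.31e-06, 9.70e-07 and 1.09e-06). Conjugating enzymes had 21 lower and 1 higher of 26 (median -1.82), led by Gsta4, a glutathione transferase at 59.5, 41.4, 45.0 and 51.4 CPM in ileum and 323, 237, 304 and 388 CPM in duodenum (log2 fold change -2.66, SE 0.11, adjusted p = 7.57e-07), and carboxylesterases had 9 lower and 1 higher of 12 (median -1.71). Ces2g stood at 18.2, 21.5, 24.6 and 21.9 CPM in ileum and 202, 188, 188 and 189 CPM in duodenum (log2 fold change -3.16, SE 0.12, adjusted p = 3.97e-07). Ces1c was the 1 esterase higher in ileum (log2 fold change 2.71, SE 0.19, adjusted p = 8.26e-06). Members of these families are near copies of each other, so reads may be divided between them.

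The promoters of Cyp3a11, Alpi and Treh are shown as examples of steeply duodenal genes whose window holds the letters CAAAGTCCA, a strong site of HNF4 nuclear receptors. Alpi, a brush border alkaline phosphatase chosen after its values were seen, stood at 482, 282, 642 and 392 CPM in ileum and 6052, 4309, 6101 and 5439 CPM in duodenum (log2 fold change -3.66, SE 0.18, adjusted p = 1.61e-06). The windows are RefSeq's on GRCm38.p6, 5′ to 3′ in the direction of transcription, with the match on either strand in capitals. They lie at chr5:145879805-145880104 on the minus strand (Cyp3a11), chr1:87101557-87101856 on the minus strand (Alpi) and chr9:44672983-44673282 on the plus strand (Treh).
Cyp3a11: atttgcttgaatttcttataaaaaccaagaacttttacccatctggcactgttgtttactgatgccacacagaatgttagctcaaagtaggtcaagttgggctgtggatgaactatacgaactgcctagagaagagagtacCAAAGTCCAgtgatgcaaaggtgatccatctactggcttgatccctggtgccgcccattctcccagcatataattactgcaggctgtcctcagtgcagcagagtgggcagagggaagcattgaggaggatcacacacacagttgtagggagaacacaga
Alpi: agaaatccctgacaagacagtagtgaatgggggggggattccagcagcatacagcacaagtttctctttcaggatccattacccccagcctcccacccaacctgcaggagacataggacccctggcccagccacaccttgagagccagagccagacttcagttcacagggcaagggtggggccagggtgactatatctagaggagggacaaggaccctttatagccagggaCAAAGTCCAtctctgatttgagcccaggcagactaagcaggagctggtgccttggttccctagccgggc
Treh: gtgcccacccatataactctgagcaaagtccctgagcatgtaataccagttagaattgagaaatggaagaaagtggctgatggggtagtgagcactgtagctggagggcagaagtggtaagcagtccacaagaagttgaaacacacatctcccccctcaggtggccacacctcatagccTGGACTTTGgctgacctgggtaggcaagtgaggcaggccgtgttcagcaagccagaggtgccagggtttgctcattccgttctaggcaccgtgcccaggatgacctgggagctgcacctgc
The letters were found in 3.95% of the 506 windows of genes at least 4-fold lower in ileum, in 0.420% of the 238 windows of genes at least 4-fold higher, in 0.367% of the 8991 windows of genes not called and in 0.475% of all 32851 windows. AGATAA, the core bound by GATA factors, was found in 16.4, 10.9, 6.4 and 11.2% of these 4 groups of windows. Windows were found for 12081 of the 17847 tested genes with a symbol, and neither share was tested. The 20 windows of lower genes that held CAAAGTCCA included Cela2a, an acinar elastase gene (log2 fold change -5.91), and repeated windows of Gimd1. They also included the related genes Cyp2c65, Cyp2c67, Cyp2c68 and Cyp2c70, so they do not stand for 20 independent genes.

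**Figure D4:**
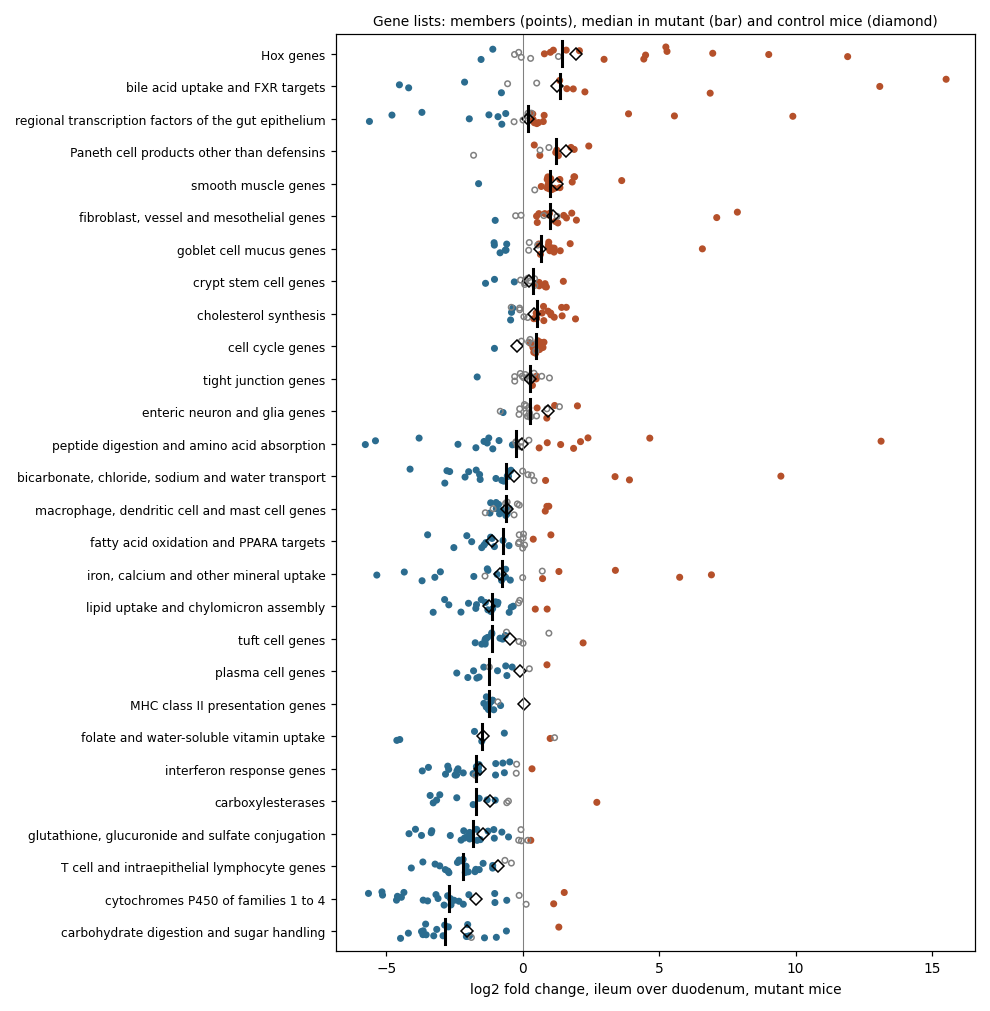
Log2 fold change of ileum over duodenum in mutant mice for the tested members of 28 gene lists, with filled points for members that passed the test (orange higher, blue lower in ileum) and open grey points for the others. A bar marks the median in mutant mice and a diamond that in control mice. The bars of the cell cycle, MHC class II and T cell lists stand away from their diamonds, at 0.48, -1.22 and -2.19 against -0.23, 0.03 and -0.90.

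Genes of salt and bicarbonate transport were likewise split, with 4 of 24 higher and 16 lower in ileum (median -0.63). Car2, carbonic anhydrase 2, stood at 1.29, 1.74, 3.22 and 2.64 CPM in ileum and 27.8, 23.1, 45.7 and 62.7 CPM in duodenum (log2 fold change -4.13, SE 0.18, adjusted p = 8.78e-07). Guca2a, the guanylin gene, stood at 529, 243, 443 and 418 CPM in ileum and 36.3, 35.0, 41.2 and 38.5 CPM in duodenum (log2 fold change 3.38, SE 0.17, adjusted p = 2.34e-06). Slc26a6 and Slc4a7, anion exchanger and bicarbonate transporter, were lower in ileum by log2 fold changes of -2.12 and -2.86 (adjusted p = 2.45e-06 and 2.47e-05). Genes of retinoid handling had 4 higher and 6 lower of 14. Rdh7, a retinol dehydrogenase, was lower in ileum (log2 fold change -3.95, SE 0.14, adjusted p = 3.41e-07). Bco1, the carotene-splitting enzyme, was higher (log2 fold change 2.37, SE 0.18, adjusted p = 1.71e-05), and was not called in control mice (log2 fold change 0.39, term 1.98, SE 0.41, adjusted p = 0.0115, with adjusted p = 0.0874 without M167 and M177). Tight junction genes had 4 of 17 higher and 1 lower, against 38.9% of all tested genes called in either direction. That 1 was Cldn15, a sodium-permeable claudin at 173, 113, 169 and 136.03 CPM in ileum and 543, 368, 547 and 423 CPM in duodenum (log2 fold change -1.67, SE 0.10, adjusted p = 3.01e-06). The count of 4 became 2 without mouse M167, without M167 and M177, and without the block. Glycan-building enzymes had 6 higher and 8 lower of 18, among them the fucosyltransferase gene Fut4 (log2 fold change -2.08, SE 0.13, adjusted p = 3.84e-06).

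The genes with the largest differences toward the ileum also held carriers and receptors outside the lists above. P2ry4, a receptor for nucleotides, stood at 54.7, 39.0, 43.0 and 48.0 CPM in ileum and 0.0396, 0.0468, 0.0418 and 0 CPM in duodenum (log2 fold change 10.33, SE 0.25, adjusted p = 6.56e-08). Slc5a8, a carrier of short-chain fatty acids, stood at 164, 153.7, 178 and 243 CPM in ileum and 0.119, 0.211, 0.0836 and 0.766 CPM in duodenum (log2 fold change 9.46, SE 0.40, adjusted p = 2.72e-05), a smaller difference than in control mice (log2 fold change 12.10, term -2.65, SE 0.63, adjusted p = 0.0194, with adjusted p = 0.0517 to 0.0548 without C134, C151 or C154). Without M167 and M177 the term of Slc5a8 was -1.41 (adjusted p = 0.106), and without C134 and C154 it was -2.26 (adjusted p = 0.144). Tmigd1, an adhesion protein of the brush border, stood at 438, 213, 344 and 344 CPM in ileum and 2.10, 0.795, 6.96 and 1.51 CPM in duodenum (log2 fold change 7.21, SE 0.58, adjusted p = 0.00102), with adjusted p = 0.16 without M167 and M177. The ileum values of P2ry4, Slc5a8 and Tmigd1 ranged from 39.0 to 54.7, from 153.7 to 243 and from 213 to 438 CPM between mice. Abca12, a lipid transporter, and Gsdmc2, a gasdermin, varied more between mice. Abca12 stood at 2.05, 26.0, 0.856 and 12.6 CPM in ileum with 1 count in duodenum (ratio of ileum to duodenum 1982, 95% counting limits 355 and 78293, adjusted p = 7.57e-07). Gsdmc2 stood at 2.15, 5.68, 3.48 and 41.9 CPM in ileum and 0, 0, 0.0627 and 0.0547 CPM in duodenum (log2 fold change 8.45, SE 0.49, adjusted p = 7.03e-06).

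The largest differences toward the duodenum need the pancreatic transcripts beside them. Tmed11, Reg1, Reg3d, Klk1b5, Aqp12, Akp3, Erp27, Otop3 and Cabp2 were among the 10 genes furthest lower in ileum, with log2 fold changes of -6.32 to -5.90. Ctrb1, a chymotrypsinogen gene of acinar cells, stood at 19.5, 409.7, 367 and 278 CPM in ileum and 1382, 34868, 7645 and 34726 CPM in duodenum. Aqp12, a water channel of acinar cells, stood at 0.0497, 0.826, 0.262 and 0.305 CPM in ileum and 1.76, 41.8, 11.6 and 36.9 CPM in duodenum (log2 fold change -5.92, SE 0.27, adjusted p = 1.25e-06), high in the same 2 duodenum libraries. Without M167 and M177 the call of Reg1 was lost with a log2 fold change of -5.80 (adjusted p = 0.0518). Tmed11, Reg3d, Klk1b5, Erp27 and Cabp2 were also highest in the duodenum of M167 and M177. All 23 tested pancreas genes were lower in ileum (median -5.73), as were 2 of 3 islet genes, which included Ins2, the insulin gene, at 0.159, 4.49, 8.40 and 17.2 CPM in duodenum. The part of pancreatic tissue in these differences was not tested.

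Otop3 and Akp3 did not follow Ctrb1. Otop3, a proton channel, stood at 1.16, 2.69, 7.10 and 1.99 CPM in ileum and 150.7, 175, 166.9 and 149 CPM in duodenum (log2 fold change -5.90, SE 0.51, adjusted p = 0.00131). Akp3, the duodenal alkaline phosphatase, stood at 28.6, 41.1, 218 and 66.9 CPM in ileum and 2472, 2780.0, 5496 and 5755 CPM in duodenum (log2 fold change -5.91, SE 0.38, adjusted p = 3.06e-05). A second set of duodenal genes was therefore picked after the values were seen, as the 12 largest differences among genes of at least 10 CPM in duodenum whose duodenum libraries lay within 2-fold of each other. Besides Otop3, Slc46a1, Slc19a3 and Onecut2 it held Slc16a9, a monocarboxylate carrier, at 5.71, 7.38, 13.2 and 4.90 CPM in ileum and 365, 244, 342 and 235 CPM in duodenum (log2 fold change -5.32, SE 0.25, adjusted p = 1.14e-05). It also held Adh6a, an alcohol dehydrogenase, at 17.5, 28.8, 37.9 and 17.2 CPM in ileum and 942, 735, 929.8 and 498 CPM in duodenum (log2 fold change -4.97, SE 0.22, adjusted p = 2.34e-06). Prap1, an acidic protein known to take part in lipid absorption, stood at 123, 60.7, 193 and 114 CPM in ileum and 2023, 1762, 2858 and 2442 CPM in duodenum (log2 fold change -4.30, SE 0.20, adjusted p = 9.70e-07). Nat8f2, Slc37a2, Slc4a5, 4931428L18Rik and 2210407C18Rik completed the set, with log2 fold changes from -5.36 to -4.47. Without M167 and M177 the calls of Otop3 and Nat8f2 were lost at log2 fold changes of -5.62 and -4.95 with 2 mice left (adjusted p = 0.23 and 0.0661). All 12 genes were also called lower in ileum of control mice.

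Many Paneth cell genes were higher in ileum. Of 11 tested alpha-defensin genes 6 were higher and none lower (median 1.04), against 11 of 11 in control mice (median 2.09). Among all tested genes 17.1% were higher in mutant and 29.8% in control mice. The tissue by genotype term passed below 0 for 6 of the 11 defensin genes (3 without C151, 3 without C134 and C154, 2 without the block). Defa22 stood at 478, 182, 487 and 312 CPM in ileum and 7.08, 6.25, 13.95 and 13.2 CPM in duodenum (log2 fold change 5.16, SE 0.27, adjusted p = 2.84e-05), while control mice had 330.1, 469, 282 and 394 CPM in ileum and 0.761, 1.49, 1.05 and 1.99 CPM in duodenum (term -3.02, SE 0.35, adjusted p = 0.00183). Defensin genes are near copies of each other, so single members are uncertain. Without mice M167 and M177, 10 defensin genes were higher. The summed level of the defensin list was 5019.6, 2324, 5189.5 and 3559 CPM in ileum and 2102, 2418, 2035 and 2171 CPM in duodenum, and M167 was the mouse whose ileum held less than its duodenum. Of 11 other Paneth cell genes 8 were higher and none lower (median 1.21), and 5 were without mouse M136. Their summed level was 13252, 7136, 12829.5 and 7880.3 CPM in ileum and 5578, 8627, 5771 and 7759.9 CPM in duodenum, again lower in the ileum of M167 and near equal in M177. Ang4, an antimicrobial ribonuclease, stood at 804, 731, 834 and 858 CPM in ileum and 219, 243, 182 and 234 CPM in duodenum (log2 fold change 1.89, SE 0.13, adjusted p = 8.20e-06). Mptx2, a mucosal pentraxin, stood at 1012, 722, 806 and 504 CPM in ileum and 279, 280.4, 173 and 163 CPM in duodenum (log2 fold change 1.77, SE 0.15, adjusted p = 3.03e-05). Reg family lectins had 2 higher (Reg4 and Reg3g, chosen after their values were seen) and 4 lower of 7, with Reg1 and Reg3d above among the lower ones. Reg3a, which stood at 10.9, 4.73, 12.8 and 12.5 CPM in ileum and 109.7, 83.7, 48.7 and 80.8 CPM in duodenum (log2 fold change -3.02, SE 0.42, adjusted p = 0.0054), was not called in control mice (log2 fold change -0.13, term -2.89, SE 0.59, adjusted p = 0.019). The term did not pass without M136 or C151, without M167 and M177 or without the block (adjusted p = 0.0564 to 0.1). In the tissues of mutant mice, without M167 and M177, 1 member was lower and Reg3a was not called (adjusted p = 0.0676). The call of Reg4 was lost without M167, and that of Reg3g without M136 or M177.

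Goblet cell genes had 12 higher and 6 lower of 21 in ileum (median 0.65), and the lower ones included abundant mucus genes, so that the summed level of the list was lower in ileum in all 4 mice, at 14988, 19312, 16541 and 20906 CPM in ileum and 22530.0, 24879, 24231 and 25095 CPM in duodenum. Retnlb, a goblet cell antimicrobial protein, stood at 5.41, 30.3, 6.204 and 14.1 CPM in ileum and 0.0595, 0.0936, 0.125 and 0.246 CPM in duodenum (log2 fold change 6.58, SE 0.37, adjusted p = 6.54e-06). Creb3l1, a factor of secretory cells, stood at 66.6, 84.1, 68.5 and 84.2 CPM in ileum and 15.1, 24.2, 24.9 and 28.6 CPM in duodenum (log2 fold change 1.74, SE 0.12, adjusted p = 8.61e-06). Among the lower members, chosen after their values were seen, Fcgbp, a mucus protein, stood at 3282, 4931, 4775 and 5169 CPM in ileum and 6823, 8755, 5981 and 6639 CPM in duodenum (log2 fold change -0.64, SE 0.19, adjusted p = 0.0259, with adjusted p = 0.0521 to 0.147 without M136, M167 or the block), and Muc13, a membrane mucin, had a log2 fold change of -1.04 (adjusted p = 0.00142). Tuft cell genes were mostly lower, with 12 of 17 lower and 1 higher (median -1.14), and 7 lower without mouse M136. Ltc4s, leukotriene C4 synthase, stood at 1.64, 0.756, 2.39 and 1.20 CPM in ileum and 6.88, 4.02, 5.77 and 2.87 CPM in duodenum (log2 fold change -1.74, SE 0.24, adjusted p = 0.000443). Genes of Brunner's glands and gastric-type mucous cells had 3 higher and 4 lower of 8. Gkn3 and Pgc, gastrokine and pepsinogen C, were lower in ileum and low in both tissues, with 0.0497, 0.182, 0.192 and 0.251 CPM of Gkn3 in ileum and 5.02, 8.14, 7.33 and 10.6 CPM in duodenum (log2 fold change -5.54, SE 0.25, adjusted p = 8.90e-07), and a log2 fold change of -5.38 for Pgc (adjusted p = 2.56e-06). A4gnt, a glycosyltransferase of gastric gland mucus chosen after its values were seen, was higher in ileum, at 5.35, 8.39, 4.72 and 9.17 CPM in ileum and 0.615, 0.351, 1.07 and 0.903 CPM in duodenum (log2 fold change 3.22, SE 0.35, adjusted p = 0.000213).

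Few hormone genes had enough counts in mutant mice to be tested. Of 4 tested, 2 were higher in ileum and none lower. Tac1, the substance P gene that enteric neurons also express, stood at 1.46, 2.53, 2.18 and 2.26 CPM in ileum and 0.297, 0.327, 0.564 and 0.274 CPM in duodenum (log2 fold change 2.52, SE 0.28, adjusted p = 0.000133). Sct, the secretin gene, stood at 4.44, 4.09, 4.70 and 4.97 CPM in ileum and 2.81, 1.68, 2.74 and 1.61 CPM in duodenum (log2 fold change 1.07, SE 0.21, adjusted p = 0.00297), a direction opposite to that in control mice (log2 fold change -0.60, term 1.65, SE 0.22, adjusted p = 0.00135). Its adjusted p was 0.0768 without M167 and M177. Sst and Gal did not pass (log2 fold change -0.30, SE 0.18, adjusted p = 0.23 for Sst). Among 11 enteroendocrine factors and granule genes 1 was higher (Cpe, log2 fold change 0.44, SE 0.11, adjusted p = 0.013) and 1 lower (Chgb, log2 fold change -1.61, SE 0.49, adjusted p = 0.0262), with no member higher without mouse M177 or without the block and with Chgb lost without M136, M167 or M168 (adjusted p = 0.0613 to 0.108). Of all tested genes, 38.9% were called in either direction.

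Crypt stem cell genes had 7 higher and 3 lower of 18 (median 0.36), beside 17.1% higher and 21.8% lower of all tested genes. Lgr5, the receptor that marks these cells, stood at 21.2, 22.5, 18.9 and 23.6 CPM in ileum and 7.10, 7.70, 8.33 and 7.58 CPM in duodenum (log2 fold change 1.49, SE 0.12, adjusted p = 2.20e-05), and Olfm4, another marker, ran the other way at 334, 179.5, 298 and 256 CPM in ileum and 572, 635, 741 and 749.6 CPM in duodenum (log2 fold change -1.37, SE 0.16, adjusted p = 0.00023). Cell cycle genes were higher in ileum of mutant mice, 18 of 24 with 1 lower and a median of 0.48, but not in control mice, where 1 was higher and 11 lower with a median of -0.23. The tissue by genotype term passed for 20 of the 24, all 20 above 0. It passed above 0 for 12 without mouse C134 and for 5 without both C134 and C154. In the test against a fold change of 1.5, stricter by construction, it passed above 0 for 1. In that test 0 members were called higher in ileum of mutant mice. Mcm4, a subunit of the replication helicase, stood at 76.7, 72.9, 72.1 and 70.9 CPM in ileum and 39.9, 33.2, 48.4 and 57.1 CPM in duodenum of mutant mice (log2 fold change 0.74, SE 0.14, adjusted p = 0.00237), against 41.4, 38.9, 40.7 and 41.5 CPM in ileum and 37.6, 38.3, 42.2 and 37.1 CPM in duodenum of control mice (log2 fold change 0.08, term 0.65, SE 0.16, adjusted p = 0.0157, with adjusted p = 0.0846 without C134 and C154). Ccnb2, a mitotic cyclin, was higher in ileum of mutant mice (log2 fold change 0.65, SE 0.12, adjusted p = 0.00238) and lower in that of control mice (log2 fold change -0.54, term 1.18, SE 0.16, adjusted p = 0.00132). Rrm2, a subunit of ribonucleotide reductase, was the member lower in ileum in both genotypes (log2 fold change -1.04, SE 0.13, adjusted p = 0.00021 in mutant mice). The difference was larger in mice M136 and M167. The median over the list was 0.77, 0.79, 0.15 and 0.18 in the 4 mutant mice, and 6, 8 and 11 members were higher without M136, without M167, and without M167 and M177.

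Immune genes of the mucosa were lower in ileum, and several of these lists differed from control mice. Of 23 T cell and intraepithelial lymphocyte genes 21 were lower and none higher (median -2.19), against 15 lower in control mice (median -0.90), and the term passed below 0 for 15. That count of 15 was 9 without C133 or C154, 3 without both C134 and C154 and 7 without the block. With a filter of 1 CPM in 4 libraries fewer members were tested and 13 were lower. Cd8a, the co-receptor of cytotoxic T cells, stood at 0.944, 0.602, 1.71 and 0.807 CPM in ileum and 11.5, 7.35, 12.4 and 5.75 CPM in duodenum of mutant mice (log2 fold change -3.21, SE 0.21, adjusted p = 5.87e-06), against 6.92, 7.68, 5.89 and 4.94 CPM in ileum and 12.95, 19.4, 21.9 and 14.1 CPM in duodenum of control mice (term -1.82, SE 0.25, adjusted p = 0.00145). Gzmb, a cytotoxic granule protease, stood at 0.977, 0.686, 1.92 and 0.664 CPM in ileum and 16.2, 11.9, 19.5 and 5.83 CPM in duodenum (log2 fold change -3.66, SE 0.21, adjusted p = 2.90e-06), and Cd7 and Itgae were lower by log2 fold changes of -3.04 and -2.19 (adjusted p = 1.57e-06 and 1.23e-05).

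MHC class II genes, which present antigen on epithelium and immune cells, gave different counts in the genotypes. In mutant mice 11 of 12 were lower in ileum and none higher (median -1.22), in control mice 2 were lower and 1 higher (median 0.03), and the term passed below 0 for 8. H2-Ab1 stood at 39.9, 40.3, 65.8 and 36.2 CPM in ileum and 126, 105, 130.3 and 116 CPM in duodenum of mutant mice (log2 fold change -1.43, SE 0.13, adjusted p = 4.57e-05), against 377, 303, 144 and 197 CPM in ileum and 284, 244, 295 and 256 CPM in duodenum of control mice (log2 fold change -0.15, term -1.28, SE 0.32, adjusted p = 0.0255, with adjusted p = 0.0565 to 0.177 without C134, M136, M167 or M177, without M167 and M177 or without C134 and C154). The ileal levels of control mice spread widely, and mice C134 and C154 among them also held more B cell and follicle transcripts, whose part in the term was not tested. The B cell and follicle list summed to 43.2, 307, 44.1 and 346 CPM in control ileum. Without these 2 mice, and likewise without M167 and M177, the term passed below 0 for 2 MHC class II genes, and for 4 or 5 without M136, M167 or M177 alone. Plasma cell genes had 10 lower and 1 higher of 13 (median -1.23) against 2 lower and 2 higher in control mice, with Jchain, the joining chain of IgA, at 254, 238, 543 and 191 CPM in mutant ileum and 964, 871, 1162 and 680.1 CPM in mutant duodenum (log2 fold change -1.68, SE 0.16, adjusted p = 5.72e-05, term -1.38, SE 0.22, adjusted p = 0.00225). B cell genes had 8 lower and none higher of 16 (median -0.61), against 11 higher and none lower of 21 in control mice (median 0.73). The control mice differed in direction. Over the 16 members, the median difference in log2 CPM, ileum minus duodenum, was -0.30, 1.08, -0.35 and 0.67 in control mice. It was -1.04, -0.53, -1.45 and -0.37 in mutant mice. The term passed below 0 for 6, which became 2 without C134 and C154 and 0 without the block. The 8 lower genes include Gp2, which acinar cells also express and which stood at 228, 4830.1, 899 and 4716 CPM in mutant duodenum. The sum of the B cell list is therefore not given for mutant mice.

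Interferon response genes were lower in ileum in both genotypes, 21 of 25 with 1 higher in mutant mice (median -1.70) and 23 of 25 in control mice (median -1.58). Ifit1 stood at 1.26, 1.30, 3.08 and 4.41 CPM in ileum and 25.2, 8.75, 37.2 and 40.6 CPM in duodenum (log2 fold change -3.46, SE 0.25, adjusted p = 3.93e-05). Irf9, part of the interferon-activated factor, stood at 12.6, 12.5, 17.2 and 14.7 CPM in ileum and 51.6, 36.7, 46.5 and 40.8 CPM in duodenum (log2 fold change -1.62, SE 0.13, adjusted p = 1.66e-05). Macrophage, dendritic cell and mast cell genes had 3 higher and 10 lower of 21 (median -0.62), led by the complement gene C1qa at 13.9, 15.9, 20.7 and 14.5 CPM in ileum and 37.5, 36.2, 36.4 and 38.3 CPM in duodenum (log2 fold change -1.20, SE 0.13, adjusted p = 9.79e-05), and 6, 5 and 5 members were lower without M136, without M177, and without M167 and M177. Epithelial alarm and oxidant genes had 6 higher and 7 lower of 17. Pigr, which carries IgA across the epithelium, stood at 847, 885, 977 and 825 CPM in ileum and 3913, 3907, 4937 and 2948 CPM in duodenum (log2 fold change -2.13, SE 0.16, adjusted p = 1.14e-05). Nos2, the inducible nitric oxide synthase, stood at 13.4, 19.2, 158 and 12.4 CPM in ileum and 0.496, 0.491, 2.51 and 0.684 CPM in duodenum (log2 fold change 5.20, SE 0.31, adjusted p = 3.65e-05).

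**Figure D5:**
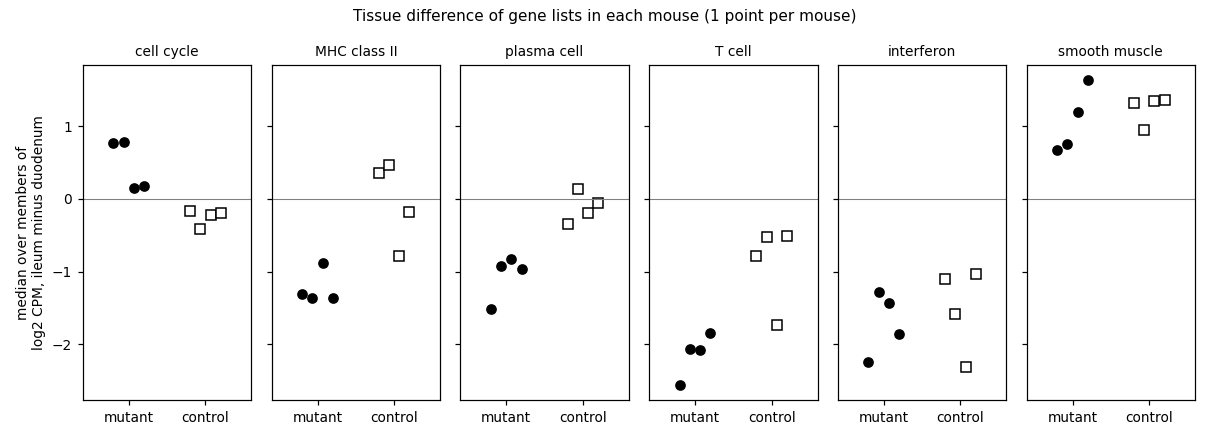
Median over the tested members of 6 gene lists of the difference in log2 CPM, ileum minus duodenum, in each mouse (filled circles mutant, open squares control). For cell cycle genes the 4 mutant mice lie between 0.15 and 0.79 and the control mice between -0.42 and -0.16. The T cell medians are -2.56 to -1.84 in mutant and -1.73 to -0.51 in control mice.

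Genes of the gut wall were higher in ileum. Of 19 smooth muscle genes 17 were higher and 1 lower (median 0.98, 1.26 in control mice). Tagln, an actin-binding protein of smooth muscle, stood at 286, 251.4, 298 and 384 CPM in ileum and 93.9, 91.0, 88.7 and 71.1 CPM in duodenum (log2 fold change 1.81, SE 0.16, adjusted p = 4.78e-05). Ckb, a creatine kinase that epithelium also expresses, was the member lower (log2 fold change -1.62, SE 0.11, adjusted p = 7.30e-06). Fibroblast, vessel and mesothelial genes had 14 higher and 1 lower of 19 (median 0.98), among them Col1a1 at 85.8, 183, 94.3 and 178 CPM in ileum and 33.1, 35.6, 20.7 and 46.9 CPM in duodenum (log2 fold change 1.97, SE 0.16, adjusted p = 4.87e-05). The fat cell genes Adipoq and Plin1 of that list stood at 1.21, 7.25, 10.1 and 4.20 CPM and 1.26, 7.14, 9.52 and 5.58 CPM in ileum and at 0, 0, 0.0627 and 0.0274 CPM and 0.0198, 0.140, 0 and 0 CPM in duodenum (adjusted p = 1.73e-06 and 6.38e-05). Enteric neuron and glia genes had 4 higher and 1 lower of 19 (median 0.25) against 16 of 20 higher in control mice (median 0.91). Of all tested genes, 38.9% were called in either direction in mutant mice and 61.8% in control mice. The term passed below 0 for 6 of 20 and above 0 for 1, beside 20.9% of all genes in either direction. Leaving out any 1 of M136, M167, M177, C133, C151 or C154 left 0 to 3 of those 6. Ret, the receptor of the enteric lineage, was higher in ileum (log2 fold change 2.003, SE 0.18, adjusted p = 7.06e-05), and Vip, a neuropeptide gene, lower (log2 fold change -0.72, SE 0.16, adjusted p = 0.00583, with adjusted p = 0.19 without M167 and M177).

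The difference between genotypes was tested directly for 19289 genes. The tissue by genotype term passed for 4027 genes (20.9%), with 2090 above 0 (10.8%) and 1937 below 0 (10.0%). Terms of at least 4-fold were found for 67 genes above 0 (0.347%) and 214 below 0 (1.11%). Of the 5075 genes called in the same direction in both genotypes, 970 (19.1%) were also among those for which the term passed. So were 660 of the 1559 genes called in mutant mice and not in control mice. These counts depended on single mice more than those within a genotype did, and without mice C134 and C154 the term passed for 719 genes above 0 and 772 below 0.

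The 8 genes with the smallest p of this term were led by Cwh43 and Il1rn, which were high in the ileum of mutant mice. Cwh43, which acts on membrane anchors in yeast, stood at 7.09, 4.23, 4.30 and 8.33 CPM in ileum and 0.773, 0.421, 0.606 and 0.903 CPM in duodenum of mutant mice, against 0.617, 0.613, 0.544 and 0.786 CPM in ileum and 2.002, 1.48, 1.18 and 1.65 CPM in duodenum of control mice (term 4.41, SE 0.27, adjusted p = 9.19e-06). Il1rn, the interleukin 1 receptor antagonist, stood at 35.7, 83.1, 39.9 and 32.9 CPM in ileum and 3.43, 3.95, 3.66 and 3.04 CPM in duodenum of mutant mice, against 6.61, 4.64, 4.69 and 5.46 CPM in ileum and 5.15, 5.62, 4.66 and 6.36 CPM in duodenum of control mice (term 3.68, SE 0.24, adjusted p = 1.57e-05). For both genes the ileum of every mutant mouse lay above every other library. Por, the electron donor of cytochromes P450, stood at 452, 251.5, 489 and 284 CPM in ileum and 572, 319.7, 546 and 321 CPM in duodenum of mutant mice, against 135, 176, 112 and 105 CPM in ileum and 483, 559.6, 458 and 363 CPM in duodenum of control mice (term 1.56, SE 0.13, adjusted p = 8.03e-05). Between the tissues of mutant mice Por did not pass (log2 fold change -0.25, SE 0.10, adjusted p = 0.081), but it was lower in ileum when all 16 libraries entered 1 fit (log2 fold change -0.27, adjusted p = 0.0273). Gsta1, Col18a1, Sae1 and Tmem253, which encode a glutathione transferase, a basement membrane collagen, a subunit of the SUMO-activating enzyme and a membrane protein, had terms of 2.53, 1.59, 1.31 and 1.32 (adjusted p = 8.03e-05, 0.000116, 0.000116 and 0.000333). Tgfbi, a matrix protein induced by TGF-beta, went the other way. It stood at 127, 125, 152 and 127 CPM in ileum and 289, 263, 250.1 and 236 CPM in duodenum of mutant mice, against 488, 334, 436 and 497 CPM in ileum and 291, 192, 259 and 269.5 CPM in duodenum of control mice (term -1.78, SE 0.13, adjusted p = 3.03e-05), and its order between the tissues was reversed between genotypes.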

How the data were processed

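Per the labels, total RNA of duodenum and ileum was sequenced as stranded libraries after ribosomal RNA depletion. The authors deposited raw counts per gene for 16 libraries. The submitters' processing notes name cutadapt 1.10, Bowtie2 2.2.8, STAR 2.5.3a, HTSeq 0.6.1p1 and genome build mm39, and the strand setting of the counting is not given in the sources used here, so antisense neighbours cannot be told apart with certainty. Gene symbols come from a table of gene names, and promoter windows from RefSeq on GRCm38.p6. Libraries held 40869732 to 67180948 counts.

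Counts were filtered with filterByExpr, scaled by TMM and tested with edgeR 4.0.16 (limma 3.58.1, R 4.3.3), using the quasi-likelihood F test, Benjamini-Hochberg adjustment over all tested genes, a threshold of 0.05 and the mouse as a block. Ileum over duodenum was fitted in mutant mice (8 libraries) and in control mice (8 libraries), and the tissue by genotype term in all 16. Printed CPM use the scaling of all 16 libraries, and the floor is 3 counts over a group. Counting intervals are 95% and cover counting error only. The labels give each mouse's number in both tissues. Residuals from the group mean of each ileum library were correlated with those of the duodenum libraries of the same genotype. In each of the 8 mice the correlation was highest with its own duodenum library (r = 0.221 to 0.481, against at most 0.24 with that of another mouse). Other pairs of libraries were not compared. The script was tested on simulated data. With the mouse as a block, p-values set the mean difference between the 2 tissues against its variation among these animals. The spread of each gene is drawn toward that of the other genes, so a small p does not mean that the mice were alike. Nothing in the labels says that the mice came from separate litters or cages.

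The gene lists and members were chosen with earlier results of these data known. Named genes are Neurog3, Gata4, Pdx1, Slc10a2, Fabp6, Fgf15, Gip, Gcg, Fabp1 and Fabp2, the 10 largest differences in each direction (at least 10 CPM in the higher tissue, no overlap, no pancreas, islet or immunoglobulin gene), up to 4 members of each list with the smallest p, and the 8 smallest p of the term. Some genes under this rule are not reported here. Other genes were chosen after their values were seen and are named as such, with Ctrb1, Cdx1, Cdx2, Gata6, Hnf4a, Hnf4g, Cubn, Reg4, Reg3g and Mttp also among them. Alternatives were the fit without the block, DESeq2 1.42.0 (size factors and Wald test), limma-voom, other low count filters, a test against a fold change of 1.5, removal of pancreas genes, each mouse left out, M167 and M177 left out, all 16 libraries in 1 fit and, chosen after seeing the data, C134 and C154 left out.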

Additional observations from a re-analysis of the deposited data

Results flagged for a closer look

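Within a group of 4 mutant mice, 1 library stood apart by Dixon's test in 17 of 275 groups, each a gene named above in 1 tissue with at least 1 CPM in some library, and chance flags about 1 in 20 groups. In ileum the libraries that stood apart held 830.4 CPM of Hnf4a in M167, 703 CPM of Slc34a2 in M136, 82.9 CPM of Slc7a8 in M168, 24.8 CPM of Tmprss15 in M168, 41.9 CPM of Gsdmc2 in M177, 3.39 CPM of Sst in M167, 65.8 CPM of H2-Ab1 in M168, 158 CPM of Nos2 in M168, 83.1 CPM of Il1rn in M167, 152 CPM of Tgfbi in M168 and 0.0166 CPM of Erp27 in M136. In duodenum the libraries that stood apart held 3.64 CPM of Gcg in M177, 111 CPM of Cdx2 in M168, 202 CPM of Ces2g in M136, 19.3 CPM of Ccnb2 in M167, 2.51 CPM of Nos2 in M168 and 30.1 CPM of Sae1 in M167.

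For the genes named, the tissue by genotype term, the log2 fold change of ileum over duodenum in mutant mice minus that in control mice, passed for 57 genes. The term was above 0, at 4.41 for Cwh43, 3.68 for Il1rn, 3.10 for Reg4, 2.53 for Gsta1, 2.45 for Tac1, 1.98 for Bco1, 1.65 for Sct and 1.59 for Col18a1. Next came 1.56 for Por, 1.32 for Tmem253, 1.31 for Sae1, 1.22 for Sst, 1.18 for Ccnb2, 1.12 for Fabp1, 1.103 for Ckb and 1.07 for Ret. It was 1.03 for Gsta4, 1.01 for Mvd, 0.76 for Guca2a, 0.75 for Ces2g, 0.72 for Col1a1, 0.65 for Mcm4, 0.62 for Hsd17b7 and 0.61 for Fdft1. Further values were 0.59 for Slc19a1, 0.56 for Creb3l1 and 0.55 for Lss. The term was below 0, at -0.50 for Irf9, -0.57 for Slc26a6, -0.61 for Slc1a1, -0.76 for Abcg5, -0.80 for Vip, -0.81 for 2210407C18Rik, -0.82 for Pigr and -0.96 for Cyp3a11. Next came -0.97 for Tcn2, -0.98 for Treh, -1.02 for Slc7a8, -1.04 for Cyp2c68, -1.05 for Olfm4, -1.06 for Itgae, -1.08 for Mme and -1.10 for Slc4a5. It was -1.12 for Fcgbp, -1.23 for Gzmb, -1.28 for H2-Ab1, -1.35 for Rdh7, -1.38 for Jchain, -1.46 for Aqp12, -1.78 for Tgfbi and -1.82 for Cd8a. Further values were -2.17 for Nos2, -2.28 for Mptx2, -2.40 for Klk1b5, -2.65 for Slc5a8, -2.89 for Reg3a and -3.02 for Defa22. The 8 genes chosen by this term are among them. These terms were not equally stable. Of the 57, 20 passed in all 8 fits with 1 mouse left out, without the block, without M167 and M177 and without C134 and C154. The term was lost for 18 in at least 1 fit with 1 mouse left out, for 28 without the block, for 20 without M167 and M177 and for 25 without C134 and C154. It was lost in at least 4 of the 8 fits with 1 mouse left out for 11 genes, namely Col1a1, Creb3l1, Cyp2c68, H2-Ab1, Irf9, Mme, Mptx2, Slc1a1, Slc26a6, Treh and Vip, with adjusted p in those fits of 0.0504 to 0.115. Aqp12 and Klk1b5 were highest in the duodenum of M167 and M177, the libraries with the most pancreatic transcripts, and without these mice their terms did not pass (adjusted p = 0.265 and 0.208). The part of pancreatic tissue in these terms was not tested.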

How the results depend on the processing

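Among the genes called in mutant mice, in control mice or by the tissue by genotype term, none changed sign under any alternative run. Counts within a genotype held within 1.5 times except as follows. A test against a fold change of 1.5, stricter by construction, left 975 genes higher and 1731 lower in ileum of mutant mice and 2451 higher and 2362 lower in control mice, and 1995 were higher in mutant mice without M167 and M177. Leaving out 1 mutant mouse at a time gave 2141 to 2521 higher and 3104 to 3505 lower, and 1 control mouse at a time 4496 to 5496 higher and 4839 to 5385 lower in control mice. The pairing by mouse mattered most for the tissue by genotype term. With no replicate block it passed for 938 genes above 0 and 796 below 0, against 2301 higher and 3246 lower in ileum of mutant mice under the same setting. The term passed for 70 and 125 genes in the test against a fold change of 1.5, for 1337 and 839 without M167 and M177, for 719 and 772 without C134 and C154, and for 1055 to 2300 above 0 and 1030 to 2183 below 0 with 1 mouse left out. The Pearson correlation between the genotypes was 0.482 with no low count filter and 0.746 to 0.788 with 1 mouse left out, and the share of mutant calls in the same direction in control mice was 67.4 to 79.8%. The log2 fold change of Gal became 1.42 (adjusted p = 0.0116) and that of Sst 0.00 without M167 and M177. The cause was not tested. Genes with few counts in a tissue have wide intervals, and depth limits them.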
